A study of Mus musculus with 9 samples.

Results

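The glioma tumour suppressors and their regulators Trp53, Nf1, Cdkn2a, Cdkn2b, Cdkn2c, Rb1, Mdm2, Mdm4 and Nf2 were followed across mouse glioma and normal brain cells. They were chosen by gene symbol, as every non-control array probe carrying one of these names, which gave 13 probes for 9 of the 34789 gene names on the array. Each of 9 RNA samples was hybridised to 1 single-colour Agilent 8x60K mouse array. In MADM mice (mosaic analysis with double markers), recombination between homologous chromosomes leaves sparse, colour-marked mutant cells. The groups were brain tumour tissue of the MADM background with EZH2 knocked out (3 arrays), glioma cells of the MADM background with no EZH2 genotype stated (2 arrays), wild-type C57BL/6J astrocytes (2 arrays) and wild-type C57BL/6J neural stem cells (2 arrays). The labels name no Cre driver, no allele of Trp53 or Nf1, no age and no culture history, and they do not say whether arrays of a group came from separate animals or cultures. What the p-values weigh is thus the scatter among these particular arrays, which may be technical in part, although Xist and Y-linked levels, given below with the other array differences, show that neither the tissue arrays nor the astrocyte arrays were all made from one source. No tumour tissue with EZH2 intact was analysed here, so the tissue comparisons hold genotype, tissue and culture together and these cannot be told apart.

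These genes form a small number of linked circuits. p53, the product of Trp53, is a transcription factor that stops division or kills damaged cells; Mdm2 and its relative Mdm4 restrain it, and Mdm2 is itself switched on by p53. Cdkn2a makes p16INK4a, which inhibits CDK4 and CDK6, and from a separate first exon makes ARF, which restrains Mdm2. Its neighbour Cdkn2b and the related Cdkn2c make the INK4 inhibitors p15 and p18, and by restraining those kinases they keep the retinoblastoma protein Rb1 able to hold back E2F-driven S-phase genes. Polycomb complexes, whose PRC2 enzyme is EZH2, are known to silence the Cdkn2a and Cdkn2b locus in dividing progenitors. Nf1 makes neurofibromin, which turns RAS off, and Nf2 makes merlin, a membrane-linked protein that feeds into the Hippo pathway. The MADM glioma model cited in the labels is known for loss of Trp53 and Nf1 in its marked cells.

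The probes read only short stretches of these transcripts, and where they lie sets what they can show. The Trp53 probe (chr11:69404204-69404263, mm9, plus strand, from base 1187 of its transcript) lies in the end of the coding region. The Nf1 probe (chr11:79394849-79394908, mm9, plus strand) starts at base 11584 of its transcript, near the 3′ end. Which exons the alleles of these mice remove is not given in the sources used here, so neither probe checks the loss of its gene. The 5′ probe of Mdm4 (chr1:134888407-134888466, mm9, minus strand) also lies in coding sequence. Other probes, given in mm9, lie at chr4:88920543-88920602 and chr4:88920405-88920464 for Cdkn2a, chr4:88952720-88952779 and chr4:88952276-88952335 for Cdkn2b, chr4:109333508-109333567 for Cdkn2c and chr14:73595408-73595467 for Rb1. The Mdm2 probe lies at chr10:117126010-117126069, the Mdm4 3′ probe at chr1:134886426-134886485 and the Nf2 3′ probe at chr11:4666761-4666820, all of them on the minus strand. These 2 coding probes are shown, as deposited in the scanner files, because the Trp53 result and the disagreement between probes of Mdm4 rest on them; all letters are lower case since no part is singled out.
Trp53 probe: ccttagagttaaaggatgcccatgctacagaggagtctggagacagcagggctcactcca
Mdm4 5′ probe: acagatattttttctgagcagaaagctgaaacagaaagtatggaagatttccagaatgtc

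Cdkn2a and Cdkn2b are neighbours on chromosome 4, transcribed from the same strand from 3 separate starts. In RefSeq on GRCm38.p6 the ARF start of Cdkn2a lies in the window chr4:89294570-89294869, its INK4a start in chr4:89282143-89282442 and the Cdkn2b start in chr4:89310983-89311282, each from 250 bases before to 50 after the start. Both Cdkn2a probes (from bases 703 and 841 of their transcript) lie in the 3′ end that the ARF and INK4a transcripts share, so they cannot tell the 2 apart. The 3 windows are shown with CpG dinucleotides in capitals, since Cdkn2a and Cdkn2b carried the largest differences among the 9 genes.
Cdkn2a ARF start: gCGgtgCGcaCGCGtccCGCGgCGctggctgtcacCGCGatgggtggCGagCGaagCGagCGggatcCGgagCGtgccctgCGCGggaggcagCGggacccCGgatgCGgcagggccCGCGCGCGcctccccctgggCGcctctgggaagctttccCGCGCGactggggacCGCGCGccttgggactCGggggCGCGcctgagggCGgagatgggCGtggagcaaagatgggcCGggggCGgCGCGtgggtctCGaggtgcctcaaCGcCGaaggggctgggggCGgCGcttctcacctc
Cdkn2a INK4a start: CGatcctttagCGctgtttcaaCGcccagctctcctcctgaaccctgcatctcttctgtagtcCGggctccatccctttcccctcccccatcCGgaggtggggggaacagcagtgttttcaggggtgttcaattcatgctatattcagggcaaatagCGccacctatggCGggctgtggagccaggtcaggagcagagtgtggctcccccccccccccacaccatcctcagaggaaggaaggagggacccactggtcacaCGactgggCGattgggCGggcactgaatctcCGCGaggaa
Cdkn2b start: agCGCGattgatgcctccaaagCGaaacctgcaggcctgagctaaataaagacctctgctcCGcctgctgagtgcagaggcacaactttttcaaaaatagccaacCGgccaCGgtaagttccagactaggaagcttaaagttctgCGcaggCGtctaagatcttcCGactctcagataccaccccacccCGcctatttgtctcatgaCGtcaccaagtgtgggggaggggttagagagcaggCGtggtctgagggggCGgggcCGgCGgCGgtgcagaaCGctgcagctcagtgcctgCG
The ARF window held 45 CpGs, more than 98.1% of 32851 RefSeq mouse promoters of the same length, whose median was 7. The INK4a window held 12 CpGs and the Cdkn2b window 18. The letters TTTGGCGC, TTTCCCGC and TTTCGCGC, which are forms of the E2F recognition sequence, were searched on both strands. The ARF window alone held one of them, TTTCCCGC, among the 12 windows found for 8 of the 9 genes, and 1.84% of all promoters held any of the 3.

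Levels are log2 of the processed spot signal minus the 75th percentile of the array, so 0 is the brightness at that percentile and 1 unit is a 2-fold step; levels are compared between arrays for one probe, never between probes. A probe was called different at a Benjamini-Hochberg adjusted p under 0.05 over all probes in limma's moderated test, together with a change of at least 2-fold. All 13 probes were tested in every comparison, and each was well above background on all 9 arrays except the Cdkn2a 5′ probe on neural stem cell array 1. Between 59.5% and 64.8% of probes were well above background per array, no spot was saturated, and the 75th percentile signal ran from 414.6 to 897.2. The 3 tissue arrays were on one slide and one scan and the 6 cell arrays on another, so slide, scan and the tissue-to-cell difference cannot be told apart. Ezh2 read 1.48 to 1.91 in the tissue, 3.03 and 3.24 in the glioma cells, 0.19 and -0.58 in the astrocytes and 2.14 and 3.38 in the neural stem cells; where its probe lies relative to the deleted part is not given.

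Several arrays stood apart within their groups. Mean levels of 8 fibroblast and meningeal markers were 1.31 on astrocyte array 1 and 5.67 on astrocyte array 2. The summed level of 11 astrocyte markers (log2 of their summed signal) was 8.85 and 7.14 on the neural stem cell arrays, while the proliferation gene Mki67 (first of 2 probes) read 2.67 and 5.83 there. In the glioma cells the 9 oligodendrocyte precursor markers averaged 5.56 and 5.23, but the progenitor factor Sox2 read -7.55 on glioma array 1 and 2.28 on array 2. The 12 microglia and macrophage markers averaged 2.80 and 3.32 in the astrocytes and 2.91 to 4.01 in the tissue, against -3.65 and -3.30 in the glioma cells and -0.76 and -2.19 in the neural stem cells. Xist and Y-linked transcripts differed within groups: Xist (first of 2 probes) read -0.70, -7.10 and -7.30 on the tissue arrays, and Ddx3y read -5.76 and 1.35 on the astrocyte arrays. Ddx3y also differed between groups, at -7.30 and -7.09 in the glioma cells and 0.24 and 0.27 in the neural stem cells. The part of sex in the group differences was not tested.

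Of the 78 differences (13 probes in 6 comparisons), 10 were called, and they fell on 4 genes: Cdkn2a, Cdkn2b, Nf1 and Rb1. The comparisons share arrays, so their values are set side by side and not counted as independent. In glioma cells against astrocytes, 2 member probes fell and none rose, where 9.96% of all probes fell and 9.82% rose, and 9 of 13 did not overlap between the groups, against 69% of all probes. In glioma cells against neural stem cells none rose or fell, where 0.613% rose and 0.334% fell, and 6 of 13 did not overlap, against 46.8%. In neural stem cells against astrocytes 3 fell and none rose, where 7.89% fell and 8.22% rose, and 6 of 13 did not overlap, against 66.4%.

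In tissue against glioma cells 1 fell and none rose, where 8.26% fell and 7.48% rose, and 8 of 13 did not overlap, against 54.2%. In tissue against neural stem cells 2 rose and 1 fell, where 7.26% rose and 9.42% fell, and 6 of 13 did not overlap, against 51.1%. In tissue against astrocytes 1 fell and none rose, where 11.5% fell and 11% rose, and 5 of 13 did not overlap, against 57%. With 13 probes, these counts are descriptions and single out no comparison.

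**Figure D1:**
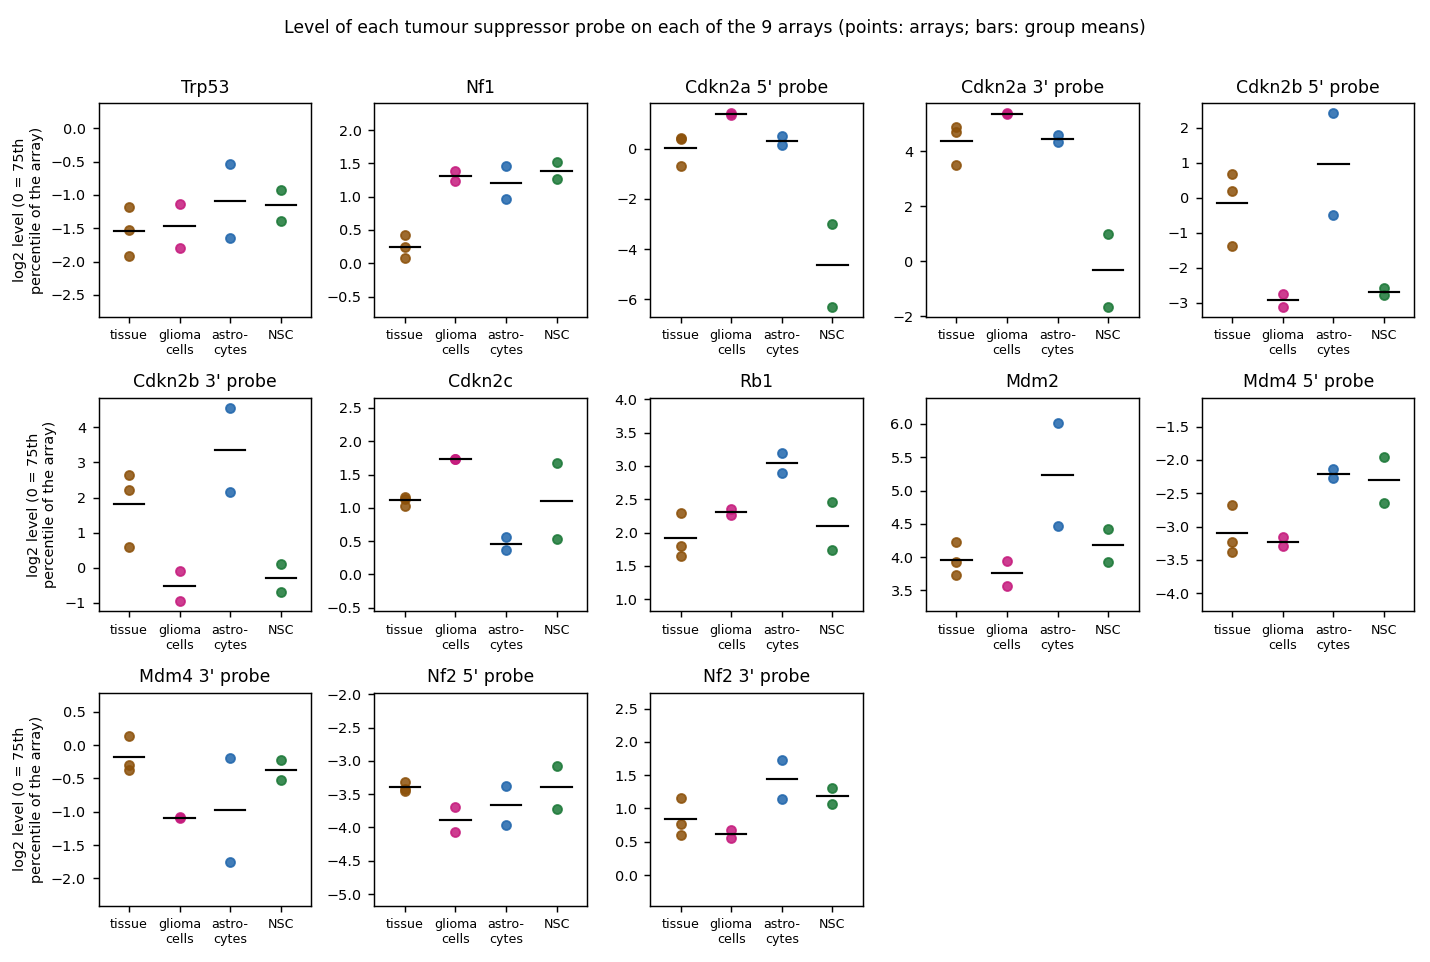
Level of each of the 13 probes (log2, 0 = 75th percentile of the array) in EZH2-KO tissue (3 arrays), glioma cells, astrocytes and neural stem cells (NSC, 2 arrays each); points are arrays and bars group means. Cdkn2a is low in neural stem cells only, Cdkn2b is lowest in glioma cells and neural stem cells, Nf1 is lowest in the tissue, and the Trp53 groups overlap.

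Trp53 did not separate the groups. It read -1.53, -1.91 and -1.18 in the tissue, -1.13 and -1.80 in the glioma cells, -1.65 and -0.54 in the astrocytes, and -1.39 and -0.92 in the neural stem cells. Every group overlapped its neighbour in the order of means, and the range over all 9 arrays was 1.37. Glioma cells minus astrocytes was -0.37 (SE 0.49, 95% interval -1.60 to 0.86, adjusted p = 0.622, limma), and glioma cells minus neural stem cells was -0.31 (SE 0.49, 95% interval -1.55 to 0.92, adjusted p = 0.827). Both intervals include a 2-fold fall, so they do not show equal Trp53 RNA. The 2 spots of this probe differed by 0.464 on glioma array 1 and 0.217 on glioma array 2, against at most 0.064 on the other arrays. The 3 genes whose profile over the 9 arrays was closest to that of Trp53 were Cyp4a10 (root mean square difference 0.191), Dnajc14 (0.221) and Sh3bp1 (0.231) after removing each probe's mean, against a median of 0.76 over all probes. Their place below the median follows from that choice and shows no shared regulation.

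Mdm2, the E3 ligase that marks p53 for destruction, was brightest in astrocytes. It read 3.73, 4.23 and 3.92 in the tissue, 3.94 and 3.57 in the glioma cells, 4.47 and 6.01 in the astrocytes and 3.93 and 4.42 in the neural stem cells. Both astrocyte arrays exceeded every other array, array 1 only narrowly. Glioma cells minus astrocytes was -1.49 (SE 0.56, adjusted p = 0.119, limma) and tissue minus astrocytes -1.28 (SE 0.46, adjusted p = 0.0813), so neither was called; without astrocyte array 1 the latter became -2.05 and was called, and without array 2 it shrank to -0.51. Array 2 is also the one with the fibroblast markers at 5.67, and the part of those cells in the Mdm2 level was not tested.

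Mdm4, which binds p53 without degrading it, gave readings that depended on the probe. Its 5′ coding probe read -3.23, -2.67 and -3.38 in the tissue, -3.30 and -3.16 in the glioma cells, -2.14 and -2.27 in the astrocytes and -2.64 and -1.96 in the neural stem cells, so both glioma cell arrays lay below both kinds of normal cell. Its 3′ probe read -0.37, 0.14 and -0.30, then -1.08 and -1.10, then -0.19 and -1.76, then -0.52 and -0.23 in the same order, with the astrocyte arrays on either side of the glioma cells and of the neural stem cells and with tissue array 2 the highest. Glioma cells minus astrocytes was -1.02 (SE 0.34, adjusted p = 0.0882, limma) by the 5′ probe and -0.11 (SE 0.55, adjusted p = 0.904) by the 3′ probe. Neither probe was called in any comparison, and over the 6 comparisons the probes had the same sign in 3, with gaps of 0.22 to 1.69.

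Among the genes that p53 switches on, calls against astrocytes went one way. Of 22 p53 targets, all tested, 10 fell and none rose in glioma cells against astrocytes (median -1.72, against 0.16 over all probes; 9.96% of all probes fell). The death receptor Fas, not well above background in glioma cells and 3.88 on average in astrocytes, was at least 596-fold lower (adjusted p = 0.00205, limma), and Ddit4l, a stress-induced inhibitor of mTOR signalling, fell by 7.51 (SE 1.09, adjusted p = 0.0113) with 1 glioma array above background. Leaving out 1 array gave 2 to 8 called falls, the fewest without glioma array 2 or without astrocyte array 2, where fibroblast and meningeal markers were highest; their part was not tested. Cdkn1a (p21), a central p53 target, differed by -4.17 (SE 1.25) but was not called (adjusted p = 0.0708). In neural stem cells against astrocytes 2 of 22 fell, Fas and Dram1, and none rose (median -1.01, against 0.25 over all probes). That share is near the 7.89% of all probes that fell there. Against neural stem cells, 1 of 22 fell in glioma cells (Fas, at least 11.7-fold lower, adjusted p = 0.0268, limma), where 0.334% of all probes fell. In the tissue, 13 fell against astrocytes (median -2.44, 6 to 14 with 1 array left out and 6 without astrocyte array 2), where 11.5% of all probes fell. Against neural stem cells 8 fell and 1 rose, where 9.42% of all probes fell, with Btg2, an antiproliferative gene, at -3.56 (SE 0.51, adjusted p = 0.00496). Those falls numbered 2 to 7 with 1 array left out, 2 without neural stem cell array 2 and 5 without neural stem cell array 1 or any one tissue array. Of 17 p53 relatives and modifiers, none was called except the DNA damage kinase Atr, which fell by 1.04 in tissue against glioma cells (SE 0.29, adjusted p = 0.0481, limma). That 1 of 17 is a share near the background, since 8.26% of all probes fell there. The Atr call was lost whichever array was left out.

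Cdkn2a separated neural stem cells from every other group. Its 3′ probe read 3.50, 4.70 and 4.88 in the tissue, 5.39 and 5.34 in the glioma cells, 4.34 and 4.59 in the astrocytes, and -1.65 and 1.00 in the neural stem cells. Its 5′ probe read -0.70, 0.37 and 0.42 in the tissue, 1.41 and 1.32 in the glioma cells, 0.13 and 0.50 in the astrocytes, and -6.30 (not well above background) and -3.00 in the neural stem cells. Both stem cell arrays lay below every array of the other groups by either probe, and they also differed from each other, array 1 being the lower. The tissue exceeded neural stem cells by 4.68 by the 3′ probe (SE 0.74, 25.7-fold, adjusted p = 0.00699, limma) and 4.69 by the 5′ probe (SE 0.86, adjusted p = 0.0114), and both stayed called in all 9 fits with 1 array left out. The size depended on the stem cell array: the 3′ difference was 3.36 without neural stem cell array 1 and 6.01 without array 2. It also depended on the processing for the 5′ probe, which was not well above background on neural stem cell array 1. Under the other settings, with all arrays kept, the 3′ difference was 4.43 to 5.19 and the 5′ difference 2.56 to 5.19, so the 5′ size is uncertain. These were 2 of the 3 member probes called in that comparison, where 16.7% of all probes were called.

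Neural stem cells against astrocytes gave the same separation, with 3 of the 13 probes called against 16.1% of all probes. Cdkn2a was lower in the stem cells by the 3′ probe (-4.79, SE 0.85, 27.7-fold, adjusted p = 0.0226, limma) and by the 5′ probe (-4.97, SE 1.04, adjusted p = 0.0338). Under the other settings, with all arrays kept, the 3′ difference was -5.2 to -4.52 and the 5′ difference -5.38 to -2.92. Without astrocyte array 1 the adjusted p became 0.0796 and 0.105, and without astrocyte array 2 0.0921 and 0.125; the 5′ probe also lost its call without either glioma array. In glioma cells against neural stem cells, none of the 13 probes was called, against 0.947% of all probes, and 3 had an unadjusted p under 0.05. The Cdkn2a differences there were 5.70 by the 3′ probe (SE 0.85, 95% interval 3.57 to 7.82, adjusted p = 0.0624) and 6.02 by the 5′ probe (SE 1.04, adjusted p = 0.0817; well above background on 1 of the 2 stem cell arrays, so its size is uncertain), and they were called in the fit of all 9 arrays (adjusted p = 0.0222 and 0.0294). Between glioma cells and astrocytes the 3′ probe differed by 0.90 (SE 0.85, adjusted p = 0.48), and the arrays did not overlap.

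Cdkn2b, although next to Cdkn2a, followed another pattern. Its 3′ probe read 0.58, 2.20 and 2.64 in the tissue, -0.09 and -0.96 in the glioma cells, 2.17 and 4.56 in the astrocytes and -0.70 and 0.12 in the neural stem cells. Its 5′ probe read -1.36, 0.21 and 0.68 in the tissue, -2.74 and -3.11 in the glioma cells, -0.49 and 2.42 in the astrocytes and -2.78 and -2.57 in the neural stem cells. Glioma cells and neural stem cells overlapped by both probes and lay below the tissue and the astrocytes. In glioma cells against astrocytes the 2 Cdkn2b probes were the only ones of the 13 called, against 19.8% of all probes. Both gave -3.89 (14.8-fold lower; SE 0.93 and adjusted p = 0.0414 for the 5′ probe, SE 0.85 and adjusted p = 0.0333 for the 3′ probe, limma). Both calls were lost without either glioma array and without either neural stem cell array, and the 3′ call was also lost without astrocyte array 2, where its difference was -2.69.

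Neural stem cells against astrocytes gave -3.65 for Cdkn2b by the 3′ probe (SE 0.85, adjusted p = 0.0441) and -3.64 by the 5′ probe (SE 0.93, adjusted p = 0.0543, not called). The 3′ call was lost in 5 of 6 fits with 1 array left out, the exception being the fit without astrocyte array 1. Tissue minus glioma cells was 2.77 by the 5′ probe (SE 0.87, adjusted p = 0.0688) and 2.33 by the 3′ probe (SE 0.83, adjusted p = 0.095). Of the 2 astrocyte arrays, array 2 was the higher by either probe, and there the fibroblast and meningeal markers averaged 5.67. Microglia and macrophage markers were also high in the groups where Cdkn2b was high, at 2.91 to 4.01 in the tissue and 2.80 and 3.32 in the astrocytes, and low where it was low, at -3.65 and -3.30 in the glioma cells and -0.76 and -2.19 in the neural stem cells. The part of either kind of cell was not tested. In the glioma cells, both Cdkn2a probes lay above the astrocyte arrays while both Cdkn2b probes overlapped the neural stem cell arrays.

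**Figure D2:**
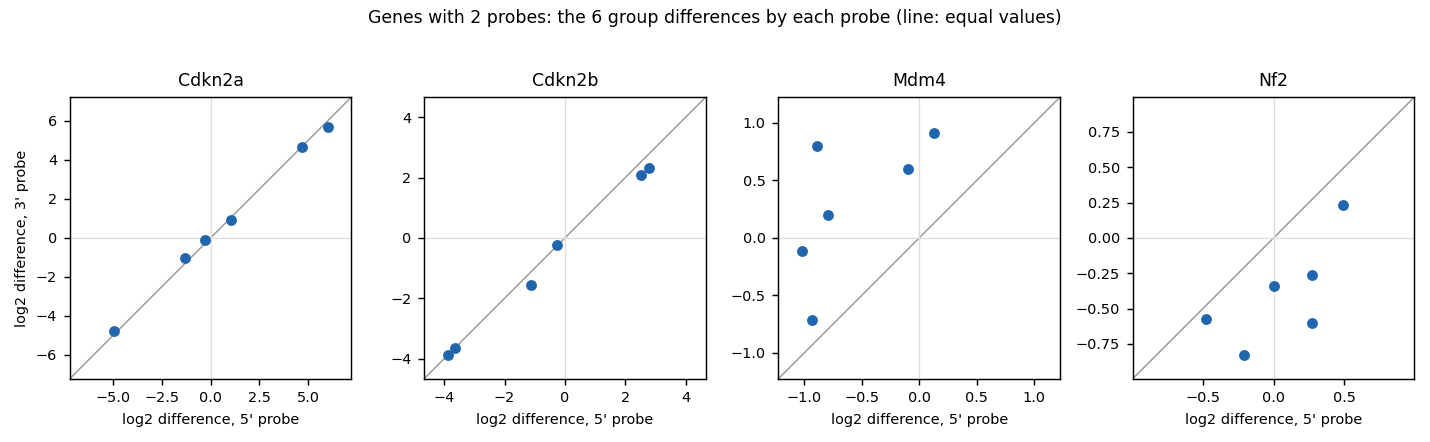
Log2 group differences in the 6 comparisons for the 4 genes with 2 probes, 5′ probe on the horizontal axis and 3′ probe on the vertical; the line marks equal values. The Cdkn2a and Cdkn2b points lie on the line within 0.32 and 0.44, while Mdm4 and Nf2 points depart by up to 1.69 and 0.87. The Cdkn2a 5′ probe was not well above background on neural stem cell array 1.

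Cdkn2c, the p18 inhibitor, was highest in glioma cells. It read 1.03, 1.14 and 1.17 in the tissue, 1.73 and 1.74 in the glioma cells, 0.36 and 0.56 in the astrocytes and 0.54 and 1.67 in the neural stem cells. The glioma arrays exceeded all others, and the lower stem cell array, array 1, was the one with the higher summed astrocyte markers (8.85) and the lower Mki67, whose part was not tested. Glioma cells minus astrocytes was 1.28 (SE 0.44, 2.42-fold, adjusted p = 0.0944, limma) and was not called; it was called without either neural stem cell array (adjusted p = 0.0427 and 0.0444). Of 11 tested INK4, CIP/KIP and G1 cyclin-kinase genes, 1 rose in glioma cells against astrocytes and none fell, a share near the 9.82% of all probes that rose. This was Cdk4, the kinase these inhibitors bind, which rose by 1.77 (SE 0.31, adjusted p = 0.0195, called in 2 of 6 fits with 1 array left out). Cdk4 also rose in neural stem cells against astrocytes by 1.81 (SE 0.31, adjusted p = 0.0215, called in 3 of 6).

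Rb1 was highest in astrocytes. The mean of its 10 spots was 1.80, 1.65 and 2.30 in the tissue, 2.36 and 2.27 in the glioma cells, 3.19 and 2.89 in the astrocytes and 2.46 and 1.73 in the neural stem cells. Both astrocyte arrays exceeded all others. The spots within an array varied by an SD of 0.041 to 0.064, which covers spotting error only. Tissue minus astrocytes was -1.12 (SE 0.33, 2.17-fold lower, adjusted p = 0.0445, limma), the only one of the 13 probes called there, where 22.6% of all probes were. That call was lost without either glioma array, without either astrocyte array, and without tissue array 1 or 2. Glioma cells minus astrocytes was -0.72 (SE 0.35, adjusted p = 0.2).

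Some E2F genes and S-phase genes they drive were higher in glioma cells than in astrocytes. Of 23 Rb relatives, E2F factors and targets, 6 rose and none fell (median 3.12, against 0.16 over all probes; 9.82% of all probes rose), among them E2f8 by 5.46 (SE 0.96, adjusted p = 0.0194, limma) and E2f7 by 5.14 (SE 1.19, adjusted p = 0.0384), both repressor-type E2Fs. With 1 array left out the count ran from 0, without any one glioma or astrocyte array, to 16, without either neural stem cell array. The neural stem cell arrays, which share the fit, differ in Mki67 (2.67 and 5.83). By the same probe Mki67 read 5.58 and 5.15 in the glioma cells, 0.12 and 0.71 in the astrocytes, and 2.95, 2.97 and 2.58 in the tissue. The part of Mki67 and the division it marks was not tested. In neural stem cells against astrocytes 1 of the 23 rose, E2f8, and 1 fell (median 1.76, against 0.25 over all probes). Over all probes 8.22% rose and 7.89% fell there. None of the 23 was called between glioma cells and neural stem cells. In the tissue, 3 fell against glioma cells, including E2f4 by 2.65 (SE 0.42, adjusted p = 0.00675), where 8.26% of all probes fell. That count was 1 without any one tissue or glioma array and 16 without either neural stem cell array. Against astrocytes 3 rose and 1 fell, again E2f4, where 11% of all probes rose and 11.5% fell. The rises numbered 0 without either astrocyte array and 10 without either neural stem cell array.

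Some Polycomb genes, whose products act on the Cdkn2a locus, were higher in glioma cells and neural stem cells than in astrocytes. The list of 15 regulators of that locus also holds Kdm6a and Kdm6b, demethylase genes that are not Polycomb subunits. Of these 15, 4 rose in glioma cells (Cbx2 by 3.66, SE 0.45, adjusted p = 0.00777, limma; Ezh2 by 3.33, SE 0.52, adjusted p = 0.0138) and none fell, where 9.82% of all probes rose. With 1 array left out 1 to 4 rose, 1 without glioma array 2 or astrocyte array 2. In neural stem cells 3 rose, with Cbx2 at 3.00 and Ezh2 at 2.96, where 8.22% of all probes rose. With 1 array left out that count ran from 0 to 4, and it was 0 when either neural stem cell array 2 or astrocyte array 1 was dropped. In the tissue 3 fell against glioma cells, where 8.26% of all probes fell (1 without either glioma array), with Cbx8, a chromobox subunit of PRC1, at -3.12 (SE 0.38, adjusted p = 0.00271). Ezh2 in the tissue was 1.87 above astrocytes (SE 0.42, adjusted p = 0.0181).

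Nf1 was lowest in the tumour tissue. It read 0.42, 0.25 and 0.08 in the tissue, 1.38 and 1.23 in the glioma cells, 1.46 and 0.96 in the astrocytes and 1.26 and 1.52 in the neural stem cells. The 3 tissue arrays lay below all 6 cell arrays, and the 3 cell groups overlapped. Tissue minus glioma cells was -1.06 (SE 0.27, 48.1% of the glioma cell level, adjusted p = 0.0381, limma), the only one of 13 probes called in that comparison, against 15.7% of all probes. Tissue minus neural stem cells was -1.15 (SE 0.27, adjusted p = 0.0279), and tissue minus astrocytes was -0.97 (SE 0.27, adjusted p = 0.0387), which passed on p but not on size. With 1 array left out the glioma comparison stayed called in 4 of 9 fits and lost its call without any one tissue or glioma array; the stem cell comparison stayed called in 5 of 9, losing it without tissue array 2 or 3 or either neural stem cell array. On the authors' unscaled values, whose all-probe median in tissue minus glioma cells is 0.54 higher, the difference was -0.52 and not called. The call was also lost with normexp (-0.92), quantile scaling (-1.0), no filter and the replicate block, and it held in 8 of 18 alternatives in all. Markers of other brain cells also differed between tissue and glioma cells. The 10 neuron markers averaged 2.21 to 3.66 in the tissue, against -0.66 and 0.00 in glioma cells, and the 12 microglia and macrophage markers 2.91 to 4.01 against -3.65 and -3.30. In the astrocytes, where Nf1 also lay above the tissue, the neuron markers averaged -0.35 and -1.36. The microglia and macrophage markers there, at 2.80 and 3.32, were close to those of the tissue. In such bulk RNA, fewer cells of a type and less RNA per cell cannot be told apart, and the part of these cells in the Nf1 level was not tested.

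Between glioma cells and normal cells the Nf1 probe showed no called difference: 0.09 against astrocytes (SE 0.32, 95% interval -0.70 to 0.88, adjusted p = 0.862, limma) and -0.09 against neural stem cells (SE 0.32, 95% interval -0.88 to 0.70, adjusted p = 0.93). The genes closest to the Nf1 profile over the 9 arrays were Adprhl1 (root mean square difference 0.129), Sec24a (0.134) and Eif3c (0.134), against a median of 0.78 over all probes. They were picked as the closest, so lying below the median was fixed by the choice and shows no shared regulation.

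Among other RAS regulators, calls went both ways. Of 10 tested relatives of Nf1 (RAS GTPase-activating proteins and SPRED adaptors), 1 rose and 3 fell in glioma cells against astrocytes. Over all probes 9.82% rose there, a share near that of the 1 rise, and 9.96% fell. Rasa3 rose by 2.37 (SE 0.38, adjusted p = 0.0144, limma) and Rasa4 fell by 3.78 (SE 0.29, adjusted p = 0.00299). Rasal3, not well above background in glioma cells, was at least 19.3-fold lower (adjusted p = 0.00257). Rasa4 and Rasal3 were called in all 6 fits with 1 array left out. In the tissue 3 of 11 rose against glioma cells, where 7.48% of all probes rose, with Rasal3 at least 15.1-fold higher (adjusted p = 0.000613, limma). Of 15 RAS proteins and exchange factors, 2 rose and 3 fell in glioma cells against astrocytes, where 9.82% of all probes rose and 9.96% fell. The exchange factor Sos1 rose by 2.02 (SE 0.33, adjusted p = 0.0154, called in 3 of 6 fits with 1 array left out) and the exchange factor Rasgrf1, not well above background in glioma cells, was at least 137-fold lower (adjusted p = 0.00957). Of 13 RAS-MAPK output genes, 2 rose and none fell there, where 9.82% of all probes rose, and 2 to 5 rose with 1 array left out, 5 and 4 without neural stem cell array 1 and 2. They were the ETS factors Etv1 by 4.84 (SE 0.56, adjusted p = 0.00686) and Etv4 by 3.30 (SE 0.45, adjusted p = 0.00948), and none was called against neural stem cells. Microglia and macrophage markers moved with Rasal3, at 2.80 and 3.32 in astrocytes and -3.65 and -3.30 in glioma cells, and their part was not tested.

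Nf2 showed no called difference by either probe. The 3′ probe read 0.60, 0.76 and 1.15 in the tissue, 0.55 and 0.67 in the glioma cells, 1.14 and 1.73 in the astrocytes and 1.06 and 1.30 in the neural stem cells, so the glioma cells lay below both normal cell types without overlap. The 5′ probe read -3.32, -3.43 and -3.45, then -4.07 and -3.70, then -3.96 and -3.38, then -3.72 and -3.08 in the same order, and there glioma cells and astrocytes overlapped. Glioma cells minus astrocytes was -0.83 by the 3′ probe (SE 0.33, adjusted p = 0.129, limma) and -0.21 by the 5′ probe (SE 0.39, adjusted p = 0.722).

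Calls among the Hippo pathway genes, which merlin feeds into, also went one way against astrocytes. Of 24 tested merlin relatives and Hippo genes, 12 fell and none rose in glioma cells (median -1.87, against 0.16, where 9.96% of all probes fell; 5 to 12 with 1 array left out, 5 without either astrocyte array), led by the YAP targets Ctgf at -10.95 (SE 0.80, adjusted p = 0.00278, limma; 1 glioma array above background) and Cyr61 at -7.09 (SE 0.76, adjusted p = 0.00554). In the tissue 15 fell and none rose (median -2.02, where 11.5% of all probes fell; 7 to 16 with 1 array left out, 7 without either astrocyte array). In neural stem cells 6 of 24 fell against astrocytes, where 7.89% of all probes fell, and 1 to 6 with 1 array left out, with 1 left when astrocyte array 1 was dropped and 2 when neural stem cell array 2 or astrocyte array 2 was. None of 24 was called between glioma cells and neural stem cells. Fibroblast and meningeal markers, at -2.63 and -3.91 in glioma cells and 1.31 and 5.67 in astrocytes, moved with these genes, and their part was not tested.

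Among other glioma tumour suppressors, Fubp1, an RNA- and DNA-binding regulator of Myc, rose in neural stem cells against astrocytes by 1.65 (SE 0.35, adjusted p = 0.0364, limma, called in 1 of 6 fits with 1 array left out). It was 1 of 12 listed genes, where 8.22% of all probes rose, a share near the background. In tissue against neural stem cells Fubp1 was the 1 gene called and fell, where 9.42% of all probes fell. Of the same 12, 1 fell in glioma cells against astrocytes, where 9.96% of all probes fell. In tissue against astrocytes 1 rose and 1 fell, where 11% of all probes rose and 11.5% fell.

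**Figure D3:**
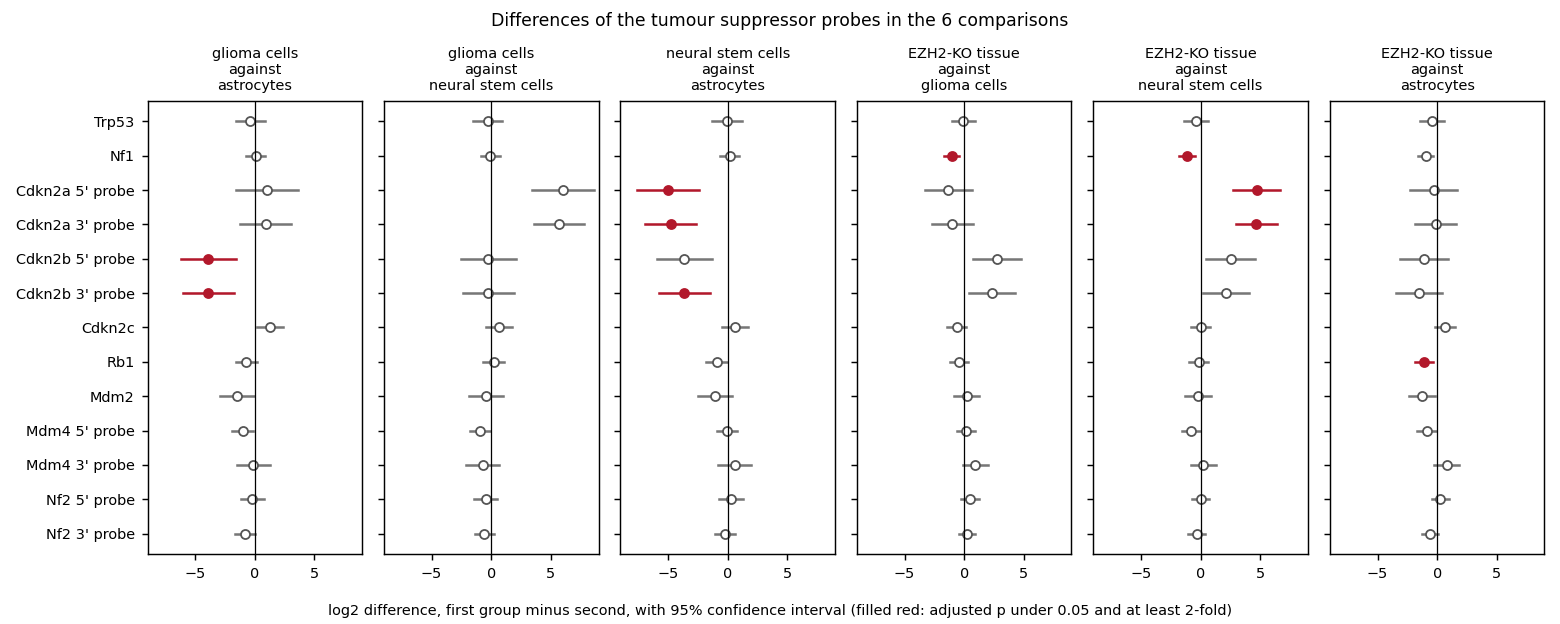
Log2 differences (first group minus second, horizontal axis) of the 13 probes in the 6 comparisons, with 95% confidence intervals from limma; filled red points were called. The 10 called values are those of Cdkn2a, Cdkn2b, Nf1 and Rb1, and every Trp53, Mdm2, Mdm4, Nf2 and Cdkn2c point is open.

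**Figure D4:**
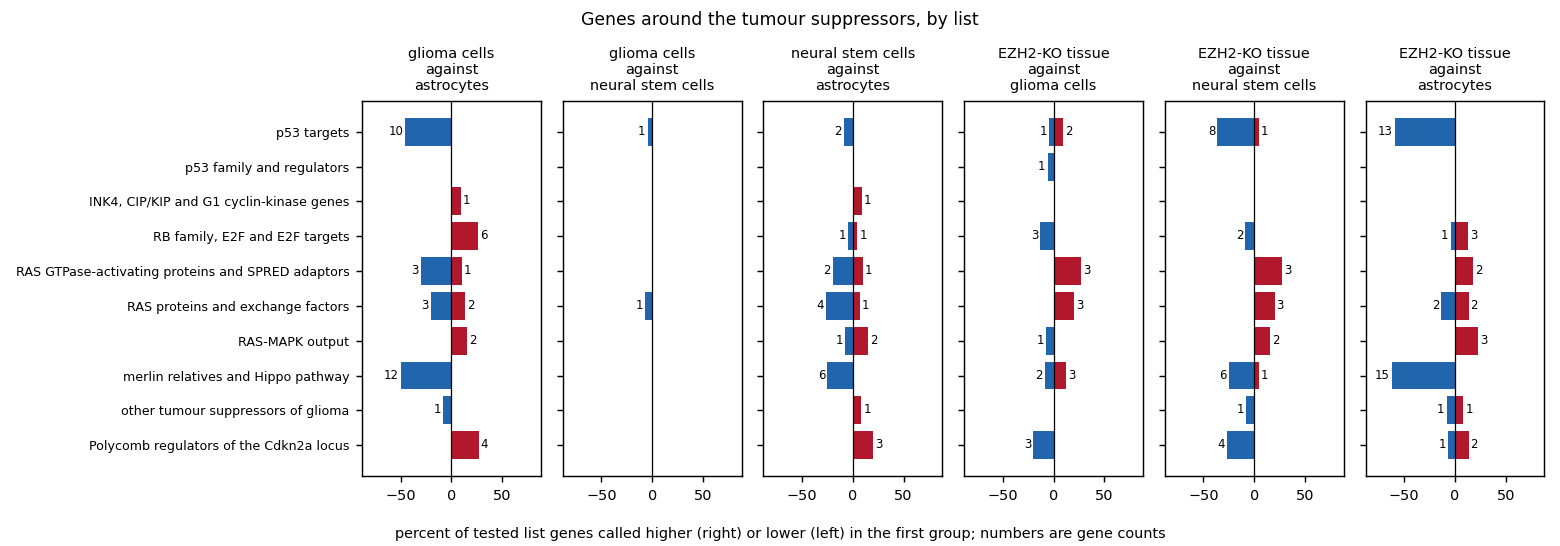
Percent of the tested genes of each list called higher (right, red) or lower (left, blue) in the first group of each comparison, with gene counts. The p53 targets (10 and 13 lower) and Hippo genes (12 and 15 lower) have the most calls, both against astrocytes, and glioma cells against neural stem cells shows 2 called genes in all.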

How the data were processed

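Spot intensity in the deposited scanner output is linear. Agilent Feature Extraction produced it, per the file headers in version 10.7.3.1 for tissue and 10.7.1.1 for cells, while the submitters' processing notes name 10.7.3.1. The authors' deposited table holds log2 values that match the processed signal with no scaling between arrays (99.02% to 99.9% within 0.01), and served as an alternative. Per the labels, 200 ng of RNA were labelled with Cy3.

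Spots marked as outliers, 96 to 164 on an array, were dropped before averaging each probe's spots. A probe counted as well above background if at least a 0.5 share of its spots were. Log2 signals minus each array's 75th percentile over non-control probes were fitted with limma 3.58.1 in R 4.3.3 (two-sided; 1 row per probe), and probes entered the test when some group had them well above background throughout. Cell groups were compared in a fit of the 6 cell arrays (36858 probes), tissue in a fit of all 9 (37706 probes). A gene in a list was read by its brightest tested probe. A fold against a group with no array above background is a bound, from the higher of the probe's own and the lowest signal well above background on each array. The fit of the cell arrays was also run on simulated data with independent noise, for glioma cells against astrocytes only. Its outcome is not reported here, and the tissue fits were not simulated. Python 3.11.15, pandas 2.3.3, numpy 2.4.6 and matplotlib 3.10.9 were used. The number of arrays limits the precision.

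Named genes are the 9 members, the 3 genes most like Trp53 and Nf1 (symbols found in RefSeq, clone and predicted names left out), and up to 2 called genes per list, comparison and direction; Cdkn1a, Sox2, Mki67, Xist and Ddx3y were named after their values were seen. The members and lists were chosen with earlier results of these data known. The normexp alternative used mean signals (offset 50) for the cell fits and median signals for the 9-array fits, since mean signals of the tissue arrays were not used here. Slide as a block could not be fitted. Some list genes and one probe sequence are not reported here.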

Additional observations from a re-analysis of the deposited data

How the results depend on the processing

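Of 1257 member differences under another setting, 1129 kept their direction and their side of the threshold, 53 lost the call, 20 gained one and 55 changed sign, none of the latter called either way. The member probes called moved as follows. In glioma cells against astrocytes (2) they were 1 with normexp, 1 with no filter, 1 with 1 probe per gene and 0 to 2 with 1 array left out. In glioma cells against neural stem cells (0) they were 2 with normexp, 1 on the authors' unscaled values and 2 in the fit of all 9 arrays. In neural stem cells against astrocytes (3) they were 0 to 2 with 1 array left out. In tissue against glioma cells (1) they were 0 with normexp, quantile scaling, the authors' values or no filter, 2 in the fit of those groups' arrays alone, and 0 to 2 with 1 array left out. In tissue against neural stem cells (3) they were 2 to 4 with 1 array left out. In tissue against astrocytes (1) they were 0 with quantile scaling, the authors' values, no filter or those groups' arrays alone, and 0 to 2 with 1 array left out. With the replicate number as a block the 6 counts were 2, 0, 2, 0, 2 and 0 in the same order, and all probes called were 6617, 0, 4995, 3440, 3446 and 4667 against 7289, 349, 5939, 5937, 6291 and 8512. Deviations of same-numbered arrays from their group means correlated at -0.16 to 0.12. In a group of 2 arrays these deviations mirror each other, so the values cannot show whether same-numbered arrays were prepared together.

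All probes called in glioma cells against neural stem cells were 90 with a stricter filter, 153 with none and 633 in the fit of 9 arrays, and 3701 in tissue against glioma cells with the stricter filter. With 1 probe per gene, glioma cells and neural stem cells against astrocytes gave 4701 and 3639. With 1 array left out the 6 ranges were 3426 to 7244, 0 to 373, 1934 to 4226, 2613 to 6293, 2110 to 5814 and 4784 to 8741. The authors' unscaled values moved the all-probe median by -0.44, -0.03, -0.41, 0.54, 0.51 and 0.10, and the share of calls that were higher from 49.7%, 64.8%, 51%, 47.5%, 43.5% and 48.9% to 31.3%, 65.6%, 27.7%, 81.2%, 77.9% and 55.6%.

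Signs changed as follows; the cause was not tested. On the authors' values, Nf1 was -0.35 in glioma cells and -0.23 in neural stem cells against astrocytes, Nf2 5′ -0.14 in neural stem cells against astrocytes, Trp53 0.47 and Rb1 0.14 in tissue against glioma cells, and Trp53 0.12, Rb1 0.33, Mdm2 0.29 and Nf2 3′ 0.16 in tissue against neural stem cells. With normexp, Nf2 5′ was 0.11 in glioma cells and Mdm4 5′ 0.02 in neural stem cells against astrocytes, Mdm4 5′ -0.12 and Nf2 5′ -0.03 in tissue against glioma cells, Mdm2 0.01, Mdm4 3′ -0.01 and Nf2 5′ -0.24 in tissue against neural stem cells, and Cdkn2a 3′ 0.02 in tissue against astrocytes. With quantile scaling, Mdm4 5′ was -0.03 in tissue against glioma cells, Mdm2 0.09 and Nf2 5′ -0.15 in tissue against neural stem cells, and Cdkn2a 3′ 0.08 in tissue against astrocytes. With the replicate block Cdkn2c was -0.02 in tissue against neural stem cells. With 1 array left out, the lowest and highest differences were as follows. For glioma cells against astrocytes these were Trp53 -0.92 to 0.18, Nf1 -0.16 to 0.34, Mdm4 3′ -0.90 to 0.67, Nf2 5′ -0.50 to 0.07. For glioma cells against neural stem cells these were Trp53 -0.65 to 0.02, Nf1 -0.22 to 0.04, Cdkn2b 3′ -0.67 to 0.20, Rb1 -0.14 to 0.58. For neural stem cells against astrocytes these were Trp53 -0.61 to 0.50, Nf1 -0.07 to 0.43, Mdm4 5′ -0.44 to 0.24, Mdm4 3′ -0.18 to 1.39, Nf2 5′ -0.05 to 0.59, Nf2 3′ -0.55 to 0.04. For tissue against glioma cells these were Trp53 -0.41 to 0.26, Mdm4 5′ -0.08 to 0.28. For tissue against neural stem cells these were Cdkn2c -0.55 to 0.57, Rb1 -0.54 to 0.18, Mdm2 -0.46 to 0.03, Nf2 5′ -0.31 to 0.32. For tissue against astrocytes these were Trp53 -1.0 to 0.11, Cdkn2a 5′ -0.48 to 0.08, Cdkn2a 3′ -0.37 to 0.32, Cdkn2b 5′ -2.57 to 0.34, Nf2 5′ -0.01 to 0.56. Slide as a block was not run, since slide and tissue coincide. The number of arrays, 2 or 3 a group, limits the precision.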
